A study of Mus musculus with 16 samples.

Results

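Gene expression in 12 mouse livers from 3 weight-loss treatments was compared with that in 4 livers from obese mice given saline. The 12 treated libraries comprised 4 from animals given Semaglutide, an agonist of the glucagon-like peptide 1 receptor (GLP1R), 4 from animals given Dicretin, a peptide that activates both GLP1R and the glucagon receptor (GCGR), and 4 from calorie restricted animals, whose weight loss was meant to match. All were C57BL/6 mice aged 22 weeks, and saline was the vehicle. The series as a whole concerns diet-induced obesity with hepatic steatosis, and the labels give no dose, length of treatment or sex. The comparison asks which transcripts differed from saline in the 3 treatments as a set. Each treated group was given the same weight, so the average of 3 group means was set against saline. Of 12910 genes tested, 412 had all 12 treated libraries on 1 side of all 4 saline libraries. Treated libraries were higher for 147 of these genes (1.14% of those tested) and lower for 265 (2.05%). All 412 had passed the filter on low counts, because only tested genes were considered, and 145 of the higher and 249 of the lower ones were protein-coding.

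A steatotic liver stores triglyceride in lipid droplets, which are coated by perilipins and enlarged by proteins of the CIDE family. Droplet genes of this kind are normally typical of adipose tissue, and in fatty liver several of them are known to be induced with the nuclear receptor PPARγ. Hepatocytes also make most plasma proteins, and these fold in the endoplasmic reticulum with the help of chaperones that are induced when folding demand rises. GLP1R is hardly expressed in hepatocytes, whereas GCGR is abundant there and signals through cyclic AMP.

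Libraries held 12.1 to 18.8 M counts. Their titles carry 16 different numbers, but the labels do not state that each came from a separate animal, so p-values measure the spread between these samples. Levels are CPM, read counts relative to library totals that were scaled by trimmed mean of M values (TMM). The summed CPM of 11 hepatocyte markers was 115552 to 139365 in saline and 100423 to 117188 with Dicretin. It was 141943 to 176964 with Semaglutide and 150941 to 169319 with calorie restriction. In the average of treated groups 3 of the 11 rose (6.81% of all tested genes) and 8 did not pass. With Dicretin alone 4 were higher (17.5%) and 2 lower (19.2%). Pancreatic acinar markers summed to 1515 CPM in library Dicretin 64 and to 6.37 to 88.0 CPM in the other 15. Skeletal muscle markers summed to 780.8 CPM in library Semaglutide 15 and to 0.331 to 1.49 CPM elsewhere. In whole liver, fewer cells of a type and less RNA per cell cannot be told apart.

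In the average of the 3 treated groups against saline, 879 genes rose (6.81% of those tested) and 1249 fell (9.67%) at an adjusted p under 0.05 (edgeR's quasi-likelihood test, Benjamini-Hochberg adjustment). Scaling by library totals alone gave 558 higher and 1480 lower. Single saline libraries weighed on these counts, with 402 higher and 786 lower genes without saline 35, 498 and 762 without saline 50, and 491 and 820 without saline 73. Without saline 78, separation held for 325 higher and 457 lower genes in place of 147 and 265. Separation and test use the same counts, so the passing of 142 of the 147 higher and 261 of the 265 lower genes describes the members and adds no support. The lower genes moved further. Their median log2 fold change was -1.06 against 0.58 for the higher genes and 0.00091 for all tested genes. A change of 2-fold or more was reached by 146 of the 265 lower genes and by 24 of the 147 higher ones, and a change of 4-fold or more by 50 and 3. For 116 higher and 122 lower genes the gap between the nearest treated and the nearest saline library was under 1.1-fold, and it reached 2-fold for 14 lower genes and for none of the higher.

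Cidea, whose product promotes lipid transfer between droplets, was nearly absent from all treated livers. Saline libraries held 4.14, 7.81, 8.51 and 9.54 CPM, and the 12 treated libraries had a lowest, median and highest level of 0, 0.0714 and 0.382 CPM. No treated library came near the lowest saline value. The average log2 fold change was -6.04 ± 0.38 (SE, 4 libraries a group, adjusted p = 1.76e-08), and the changes were -6.34 with Semaglutide, -6.40 with Dicretin and -5.39 with calorie restriction. Cidea lies on chromosome 18, 67343604 to 67367785 (mm10), and a counted gene on the opposite strand overlaps it.

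Cidec, a relative of Cidea at droplet contact sites, had 19.5, 47.6, 64.6 and 64.7 CPM in saline and 1.05, 2.83 and 18.1 CPM as the lowest, median and highest treated values. Its log2 fold change was -3.85 ± 0.35 (SE, adjusted p = 1.88e-06). Dicretin lay nearest to saline here, with 1.76 ± 1.04 CPM in calorie restriction (mean ± SD, n = 4), 2.64 ± 0.885 with Semaglutide and 8.42 ± 6.63 with Dicretin. The highest Dicretin library lay just below the lowest saline library.

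Plin4 and Lipe, a droplet coat protein and the hormone-sensitive lipase, were also separated. Saline libraries held 27.8, 45.8, 49.9 and 63.2 CPM of Plin4 and treated libraries 1.43, 7.36 and 19.7 CPM at the lowest, median and highest. For Lipe the values were 23.4, 26.8, 27.5 and 34.5 CPM in saline and 7.12, 8.28 and 15.8 CPM in treated livers, a log2 fold change of -1.54 ± 0.15 (SE, adjusted p = 2.13e-06). Fitm2, which partitions triglyceride into droplets, fell less, with a log2 fold change of -0.84 ± 0.14 (SE). Plin4 and Fitm2 overlap counted genes on the opposite strand. Of the 21 tested genes of the droplet coat and of lipolysis, 9 fell (9.67% of all tested genes) and the other 12 did not pass. Their median log2 fold change was -0.27. Plin2, the main perilipin of liver, fell by the test (log2 fold change -1.11, adjusted p = 9.12e-04) with overlap: 1 calorie restricted library held 599.6 CPM and the lowest saline library 515 CPM.

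Pparg, the nuclear receptor that drives adipogenic genes, was among the members. Saline livers held 25.9, 31.5, 33.2 and 44.2 CPM and treated livers 2.08, 8.55 and 17.03 CPM at the lowest, median and highest, so that the highest treated value lay well under the lowest saline value. The average change was 5.29-fold lower (log2 -2.40 ± 0.16 SE, adjusted p = 2.44e-08). The size differed by treatment, with 13.00 ± 3.36 CPM in calorie restriction, 8.43 ± 2.02 with Semaglutide and 2.34 ± 0.199 with Dicretin (mean ± SD, n = 4; adjusted p among the 3 groups = 1.05e-06). Mogat1, a monoacylglycerol acyltransferase that makes diacylglycerol, had 4.47, 7.02, 7.56 and 10.95 CPM in saline and 0.136, 0.677 and 1.56 CPM in treated livers, a log2 fold change of -3.47 ± 0.28 (SE, adjusted p = 2.38e-07). A counted gene overlaps Mogat1 on the other strand. Of 27 tested genes of fatty acid uptake and triglyceride synthesis, 6 fell (9.67% of all tested genes) and 2 rose (6.81%). The fatty acid translocase Cd36 fell by the test (log2 -1.60, adjusted p = 2.23e-04) with overlapping libraries. Acsl4, an acyl-CoA synthetase, was among the 2 that rose, with 317 ± 40.9 CPM in Dicretin and 41.8 ± 4.75 CPM in saline (mean ± SD), and its call was lost when the Dicretin group was left out.

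Osbpl3, an oxysterol-binding protein of membrane contact sites, fell from 23.2, 37.8, 39.8 and 46.3 CPM in the saline libraries to 0.429, 3.72 and 9.46 CPM at the lowest, median and highest of the treated ones. The log2 fold change was -3.66 ± 0.29 (SE, adjusted p = 2.38e-07). Krt23, a keratin induced in fatty liver, and Anxa2, a membrane-binding annexin, were lower by 5.67-fold and 2.95-fold. A list of 27 tested genes known to follow steatosis had 21 lower members (9.67% of all tested genes) and 1 higher (6.81%). On the lower side 11 were separated (2.05%). Its median log2 fold change was -1.36 in the average, and 17 of its members fell with Semaglutide (2.62% of all tested genes), 20 with Dicretin (19.2%) and 16 with calorie restriction (4.11%). These comparisons share the 4 saline libraries. The list shares members with the lists above, among them Cidea, Cidec, Plin2, Plin4, Cd36, Pparg and Mogat1.

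**Figure D1:**
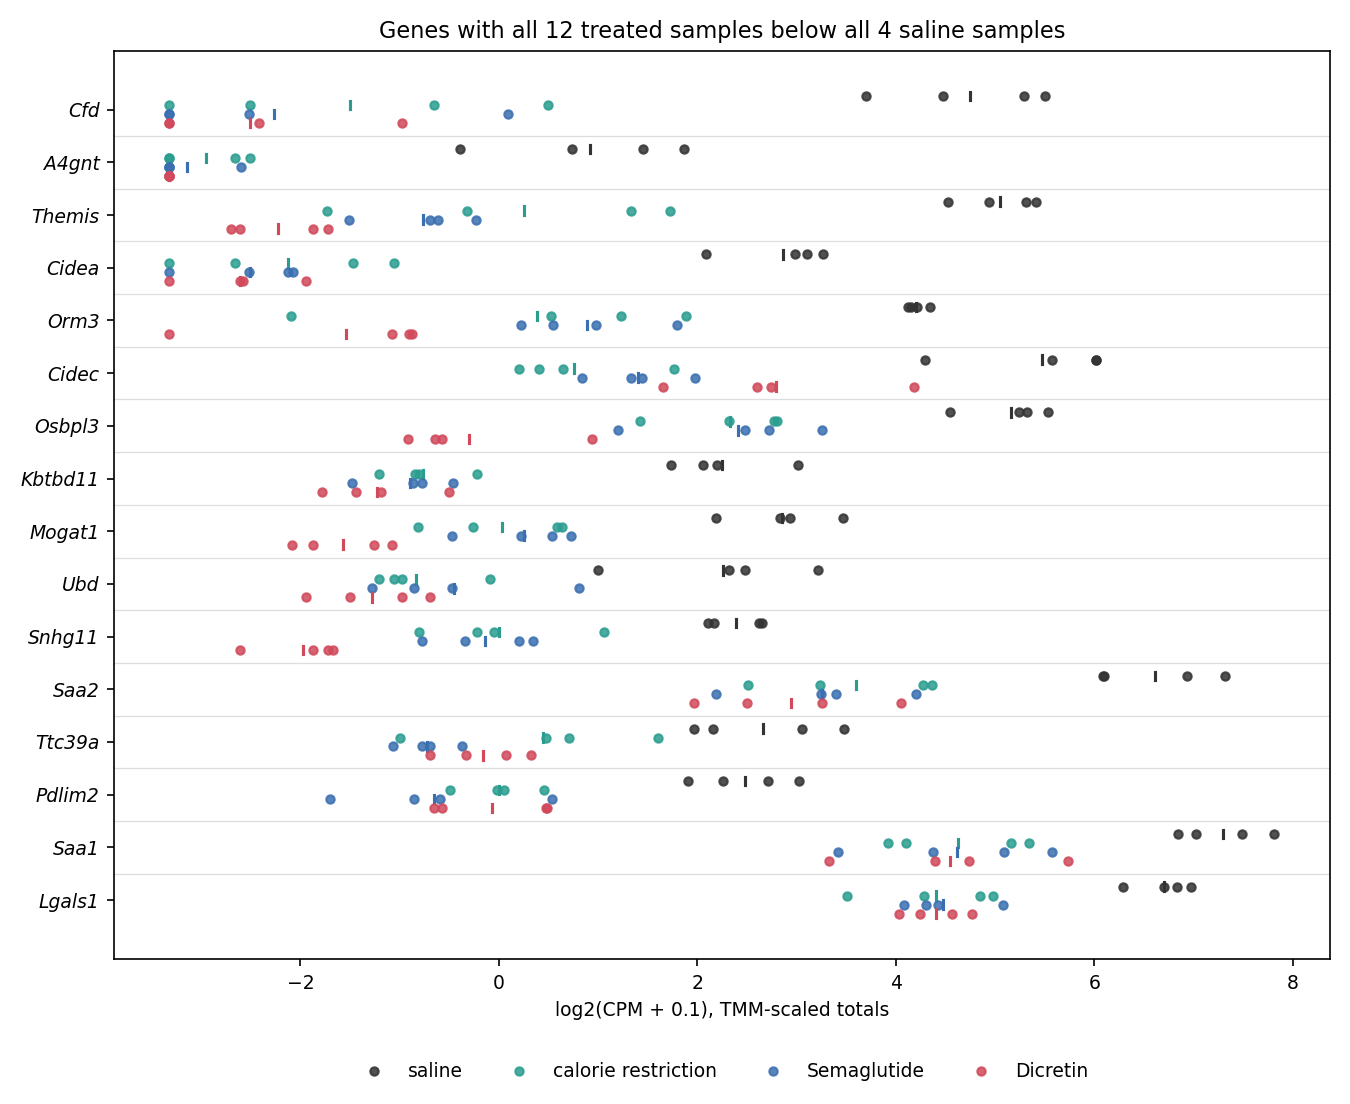
Each point is 1 library, placed by log2(CPM + 0.1) on the horizontal axis, for 16 genes lower in treated livers; colours give the 4 groups and short bars the group means. Saline points lie to the right of all treated points in every row, from a wide gap in Cfd and Cidea to a narrow one in Cidec.

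The member with the largest average change was Cfd, the serine protease adipsin, which is made mainly by adipocytes. Its counts were 12.9, 22.2, 38.96 and 45.4 CPM in saline and 0, 0.0757 and 1.31 CPM at the lowest, median and highest of the treated libraries, a log2 fold change of -6.86 ± 0.58 (SE, adjusted p = 1.78e-06). Of 10 adipocyte markers, 5 were tested and 3 fell (9.67% of all tested genes), namely Cidea, Cfd and Plin4. Without Car3, which is also a liver gene, the summed level of the other 9 was 64.6 to 114.9 CPM in saline and 10.5 to 37.3 CPM in treated libraries. The sum includes Cidea, Cfd and Plin4, which the rule chose for being lower in treated libraries. Its gap therefore adds no support and does not describe the remaining markers. The part of adipose cells in these values was not tested. Car3 itself did not pass in the average (adjusted p = 0.203). It had 4553 ± 754 CPM in saline, 3408 ± 636 with Semaglutide, 6023 ± 937 with calorie restriction and 732 ± 777 with Dicretin (mean ± SD). The fall with Dicretin passed (log2 -2.64, adjusted p = 0.00367; among the 3 groups, 0.00458).

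Several genes of fatty acid oxidation were lower too. Pex11a, which helps peroxisomes divide, had 143, 215, 243 and 245 CPM in saline and 57.1, 83.6 and 137 CPM in treated livers. All 12 treated values lay under the saline range, and the average was 2.40-fold lower (log2 -1.26 ± 0.15 SE, adjusted p = 1.54e-05). Pex19, a peroxisomal import chaperone, changed by -0.51 on the log2 scale. Of 21 tested peroxisomal genes, 10 fell (9.67% of all tested genes) and 4 were separated on the lower side (2.05%), with a median of -0.45. Most of the fall lay with Dicretin, which had 16 lower calls (19.2% of all tested genes) and a median of -0.99. Semaglutide had 7 (2.62%) with a median of -0.36, and calorie restriction 3 (4.11%) with a median of -0.21.

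Mitochondrial fatty acid oxidation contributed Cpt1a, the carnitine acyltransferase that controls fatty acid entry, and Hadh. Cpt1a was 522, 550.2, 677 and 704 CPM in saline and 212, 385 and 453 CPM at the lowest, median and highest of the treated libraries. Its log2 fold changes were -0.82, -0.58 and -0.69 for Semaglutide, Dicretin and calorie restriction. Of 21 tested genes 3 fell and the other 18 did not pass, with a median of -0.055, so the list as a whole stayed near the background of 9.67%. The acyl-CoA dehydrogenase genes Acad10 and Acad12, neighbours on chromosome 5, were both lower in all 12 libraries, by -0.65 and -1.46 on the log2 scale.

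Of 23 tested genes of de novo lipogenesis, 6 fell (9.67% of all tested genes) and 17 did not pass. None was separated, where 1.14% of all tested genes were separated higher and 2.05% lower. At these shares a list of this size may well hold none. The median was -0.84 with Dicretin, -0.49 with Semaglutide and 0.11 with calorie restriction. Thrsp, which marks lipogenic state, had 18.9, 182 and 1040.3 CPM at the lowest, median and highest of the treated libraries and held 758, 852, 895 and 1185 CPM in saline. Its call and that of the ketone-using enzyme Aacs were lost without the Dicretin group. The list had 2 lower calls without saline 35, 3 without saline 50 and 2 without the Dicretin group.

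The largest described group of higher members was genes of protein folding and export in the endoplasmic reticulum. Hspa5 (BiP), the central chaperone of its lumen, had 323, 346, 362 and 403 CPM in the saline libraries and 528, 829 and 1652 CPM at the lowest, median and highest of the treated ones. The treated livers averaged 2.48-fold more (log2 1.31 ± 0.22 SE, adjusted p = 4.05e-04). Each group was above saline, with 658 ± 144 CPM for Semaglutide, 1052 ± 404 for Dicretin and 1019 ± 317 for calorie restriction (mean ± SD, n = 4). The test among the 3 treated groups did not pass (adjusted p = 0.0590). The highest value, 1652 CPM, came from 1 Dicretin library, which was also the highest of its group for Manf and Creld2.

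Hyou1, a large chaperone of the same compartment, rose from 29.5, 37.8, 41.4 and 42.9 CPM in saline to 69.2, 123 and 238 CPM in treated libraries, a log2 fold change of 1.75 ± 0.27 (SE, adjusted p = 2.01e-04). Manf, a secreted protein that binds Hspa5, and Creld2, a disulfide isomerase-like protein, had log2 fold changes of 1.71 ± 0.28 and 1.62 ± 0.32 (SE). Treated libraries reached 56.1, 87.5 and 211 CPM of Manf, against 25.9, 27.3, 28.9 and 35.4 CPM in saline. Hsp90b1 (GRP94) was 473, 479.6, 480.3 and 492 CPM in saline and 522, 714 and 1107 CPM in treated livers, so its change was smaller (0.61 on the log2 scale) but its saline libraries lay very close together. Manf and Hsp90b1 overlap counted genes on the opposite strand.

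Other separated genes covered several steps of secretion. Spcs2, a subunit of the signal peptidase, had 49.2, 53.7, 54.6 and 65.8 CPM in saline and 72.7, 106 and 139 CPM in treated livers. Sec61a1, the channel through which nascent chains enter, changed by 0.77 ± 0.14 and Dnajb11, a co-chaperone of Hspa5, by 0.87 ± 0.12 (log2, SE). Dnajb11 ranged over 77.2, 102 and 161 CPM in treated livers and 56.8, 57.2, 59.4 and 66.00 CPM in saline. On the log2 scale, Dnajc3, Serp1, Hspa13, Selenos and the lectin chaperone Canx were higher by 0.59, 0.76, 0.93, 1.04 and 0.46. Canx lost its call without saline 73. The cargo receptors and retrieval proteins Tmed9 and Kdelr2 were higher by 0.63 and 0.40. Spcs2 and Serp1 overlap counted genes on the opposite strand.

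Of 71 tested genes of endoplasmic reticulum folding, translocation and glycosylation, 43 rose (6.81% of all tested genes) and 1 fell (9.67%). On the higher side 23 were separated (1.14%), and the median was 0.46 where all tested genes had 0.00091. This list was assembled after the values were seen, and its count therefore describes these libraries only. Higher calls were 15 for Semaglutide (1.56% of all genes), 34 for Dicretin (17.5%) and 32 for calorie restriction (3.42%). With Dicretin, 4 members of the list were lower. The count of higher members was 29 with library totals alone, 25 without saline 35, 28 without saline 50 and 27 without saline 73, and 14 in a comparison of 12 against 4 libraries with no group terms. It was 49 without Semaglutide 11, Dicretin 14 and saline 78. These had the lowest scaling factor (0.853), the highest (1.12) and the lowest total count. Saline 78 held 12.14 M counts and Dicretin 65 held 12.23 M, so saline 78 did not stand apart by its total. A shorter list covered the integrated stress and unfolded protein response, with 24 genes tested. It had 11 higher members (6.81% of all tested genes), 13 that did not pass and 5 separated on the higher side (1.14%). It includes Atf4, a transcription factor translated under stress, with 63.2, 70.3, 75.1 and 79.6 CPM in saline, 83.2, 118 and 228 CPM in treated livers and a log2 fold change of 0.84 ± 0.13 (SE). Its target Asns, asparagine synthetase, was 20.2 ± 3.70 CPM with Dicretin and 0.268 ± 0.271 CPM in saline (mean ± SD), and it overlapped saline in the Semaglutide and calorie restricted groups.

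The promoters of these genes are shown because 5 of the separated genes carry the endoplasmic reticulum stress element (ERSE), the sequence through which ATF6 and XBP1 are known to act with NF-Y. RefSeq windows (GRCm38.p6) from 250 bases before to 50 bases after the start were searched on both strands for the letters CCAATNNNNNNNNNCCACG. The element was found in 5 of the 14 separated genes of the list that had a window, and in 4 of the 41 tested members that were not separated. The list was assembled after the values were seen and is split here by the rule itself. These counts therefore describe the list, and a part of the element in the changes was not tested. The element occurred in 0.16% of tested genes, in 0.137% of all genes and in 0.119% of 32851 windows. It occurred in none of the 203 separated lower genes with a window. The 250 bases before the start follow for the 5 genes, 5′ to 3′ on the gene's own strand, with the element in capitals on whichever strand it was found.
Hspa5, chr2:34771840-34772089, + strand: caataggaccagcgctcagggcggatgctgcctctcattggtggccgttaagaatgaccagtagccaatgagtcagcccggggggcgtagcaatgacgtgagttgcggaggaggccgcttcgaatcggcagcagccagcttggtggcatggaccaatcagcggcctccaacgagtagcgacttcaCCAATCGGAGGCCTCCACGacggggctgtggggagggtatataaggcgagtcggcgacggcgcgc
Hsp90b1, chr10:86705445-86705694, - strand: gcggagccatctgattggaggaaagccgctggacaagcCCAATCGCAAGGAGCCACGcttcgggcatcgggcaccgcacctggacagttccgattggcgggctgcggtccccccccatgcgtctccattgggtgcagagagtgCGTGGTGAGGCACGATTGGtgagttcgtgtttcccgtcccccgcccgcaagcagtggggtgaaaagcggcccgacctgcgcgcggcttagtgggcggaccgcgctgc
Creld2, chr15:88819396-88819645, + strand: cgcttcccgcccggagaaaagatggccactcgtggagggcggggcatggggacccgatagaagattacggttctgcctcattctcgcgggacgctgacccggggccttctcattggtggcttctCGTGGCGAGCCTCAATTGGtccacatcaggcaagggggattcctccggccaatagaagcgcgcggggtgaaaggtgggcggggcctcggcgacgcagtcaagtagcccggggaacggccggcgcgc
Dnajc3, chr14:118937682-118937931, + strand: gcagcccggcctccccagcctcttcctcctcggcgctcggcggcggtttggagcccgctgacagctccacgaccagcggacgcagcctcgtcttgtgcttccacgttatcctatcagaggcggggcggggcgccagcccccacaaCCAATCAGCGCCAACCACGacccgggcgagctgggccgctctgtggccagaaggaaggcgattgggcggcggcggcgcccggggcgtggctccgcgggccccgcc
Canx, chr11:50325674-50325923, - strand: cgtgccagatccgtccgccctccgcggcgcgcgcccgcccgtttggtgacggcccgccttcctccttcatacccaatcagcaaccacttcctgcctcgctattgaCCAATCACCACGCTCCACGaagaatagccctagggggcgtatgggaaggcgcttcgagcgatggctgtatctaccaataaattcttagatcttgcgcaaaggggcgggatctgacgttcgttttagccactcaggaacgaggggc

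Hsp90b1 held 2 copies and the others 1. Dnajb11 held the related ERSE-II (ATTGGNCCACG), found in 0.08% of tested genes and 0.0444% of all genes. Dnajc25 held the core of the unfolded protein response element (TGACGTGG), found in 0.98% of tested genes and 0.714% of all genes. Of the 41 list members that were not separated, 1 held ERSE-II and 2 held that core. A cyclic AMP response element (TGACGTCA) was present in 5 of 106 higher and 2 of 203 lower genes and in 3.48% of tested genes. An E-box (CACGTG) was present in 22 of those 106 and 33 of those 203 and in 11.8% of tested genes. A direct repeat bound by PPAR receptors (AGGTCANAGGTCA) was found in none of them and in 0.06% of tested genes. A match of letters is a description and not a binding site.

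**Figure D2:**
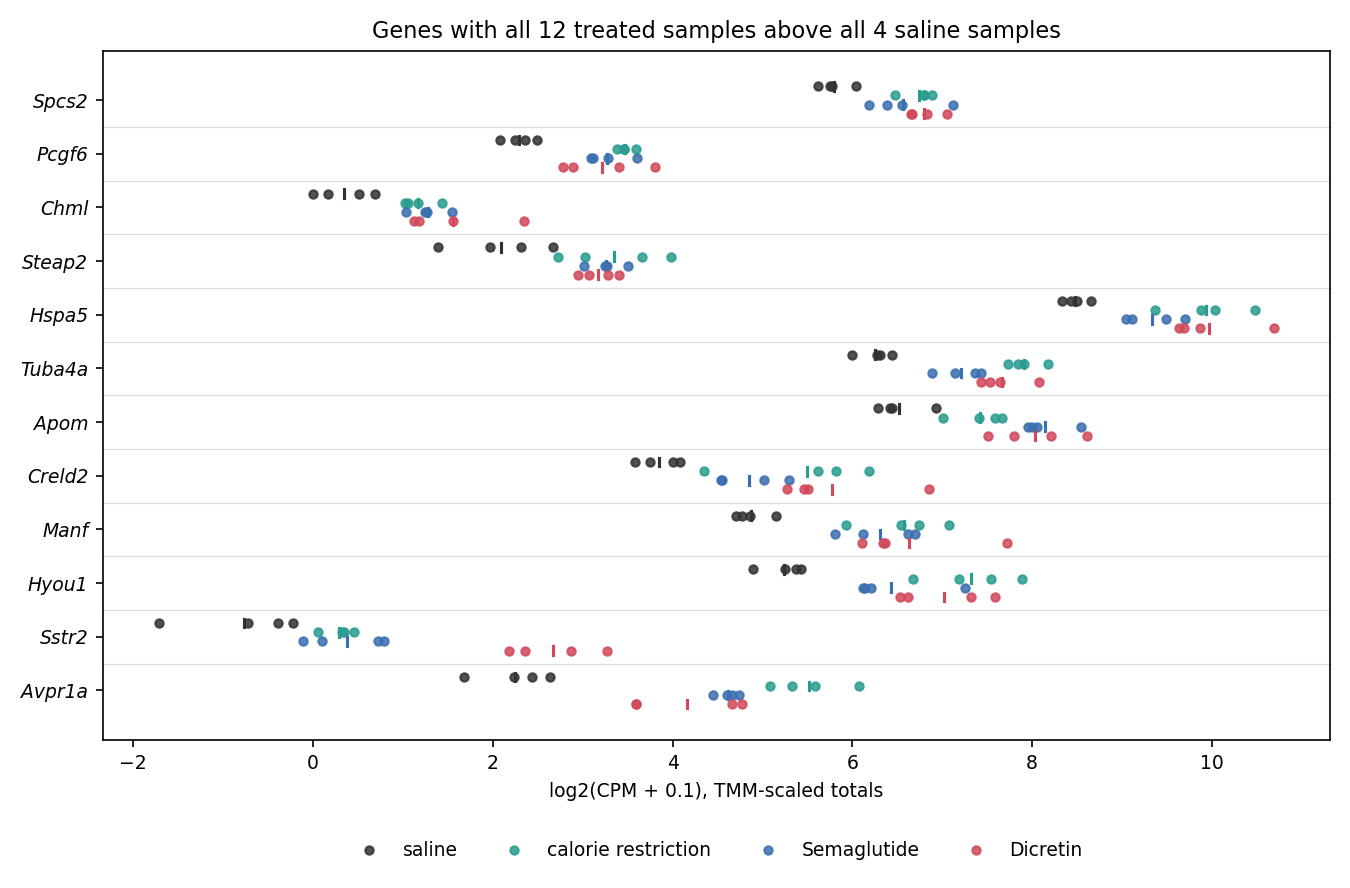
Each point is 1 library, placed by log2(CPM + 0.1), for 12 genes higher in treated livers; colours give the groups and short bars the group means. All treated points lie to the right of the saline points, with the widest gap for Avpr1a and the widest spread between treated groups for Sstr2.

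Among cytosolic chaperones, 4 of 8 tested chaperonin subunits were separated on the higher side, where 1.14% of all tested genes were. Of 16 tested heat shock chaperones 4 rose (6.81% of all tested genes), 1 fell (9.67%) and none was separated. Cct5 was 106, 107, 122 and 133 CPM in saline and 150.1, 165 and 242 CPM at the lowest, median and highest of the treated libraries, with a log2 fold change of 0.61 ± 0.13 (SE, adjusted p = 0.00431). Tcp1 and Cct7 changed by 0.42 and 0.45, and both overlap counted genes on the opposite strand. Tcp1 lost its call without saline 35, and Cct7 without saline 35, saline 50 or saline 73. Cct2 was separated without passing the test (log2 0.27, adjusted p = 0.0650). The chaperonin group was picked after its values were seen. The chaperonin group had 4 higher calls (6.81% of all tested genes). They became 1 without saline 35 and 2 without saline 50 or saline 73.

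Avpr1a is the vasopressin V1a receptor, through which the hormone raises hepatocyte calcium and glucose output. It was the named gene with the largest rise in the least changed group. Saline libraries held 3.09, 4.59, 5.31 and 6.12 CPM and treated libraries 11.95, 25.9 and 67.4 CPM at the lowest, median and highest. The treated average was 5.92-fold higher (log2 2.56 ± 0.27 SE, adjusted p = 4.30e-06). Calorie restriction gave 47.3 ± 14.6 CPM, above 24.4 ± 2.02 with Semaglutide and 19.1 ± 8.28 with Dicretin (mean ± SD, n = 4; adjusted p among groups = 0.00191). The calorie restricted libraries did not overlap those of the other 2 groups. Avpr1a lies on chromosome 10, 122448499 to 122453452 (mm10).

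Apom, the apolipoprotein that carries sphingosine 1-phosphate on HDL, rose from 77.6, 85.6, 86.5 and 122 CPM in saline to 128, 235 and 391 CPM in treated livers. Calorie restriction had 173 ± 32.97 CPM and the peptides 286 ± 58.3 (Semaglutide) and 273 ± 91.8 (Dicretin). Tuba4a, an α-tubulin, was 63.7, 77.4, 79.2 and 86.7 CPM in saline and 119, 192 and 289.9 CPM in treated livers, a log2 fold change of 1.35 ± 0.15 (SE, adjusted p = 6.83e-06). Stk16 overlaps Tuba4a on the opposite strand. Steap2, a metalloreductase, and Pcgf6, a Polycomb-group protein, were higher by 2.22-fold and 2.08-fold. The test among treated groups did not pass for either (adjusted p = 0.702 and 0.644). Chml, which escorts Rab proteins, had the lowest level of these, with 0.899, 1.02, 1.32 and 1.51 CPM in saline and 1.94, 2.22 and 4.98 CPM in treated livers. Its call was lost without saline 35.

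Saa1 and Saa2 encode serum amyloid A proteins, which the liver makes in the acute-phase response. Saa1 held 115, 129.6, 179 and 225 CPM in saline and 9.96, 23.7 and 53.00 CPM at the lowest, median and highest of the treated libraries. Its log2 fold changes were -2.53, -2.56 and -2.59 for Semaglutide, Dicretin and calorie restriction. Saa2 went from 67.7, 68.2, 122 and 159.6 to 3.80, 9.42 and 20.5 CPM, a log2 fold change of -3.27 ± 0.36 (SE, adjusted p = 1.91e-05). The 2 genes are close copies and neighbours on chromosome 7, so reads may have been split between them. Saa4 was 98.3 ± 16.4 CPM with Dicretin and 442 ± 97.7 CPM in saline (mean ± SD), and its average call was lost without the Dicretin group. Saa3 did not pass (adjusted p = 0.569).

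Orm3, an α1-acid glycoprotein, was 17.3, 17.6, 18.4 and 20.1 CPM in saline and 0, 1.20 and 3.59 CPM in treated livers. Its neighbour and close copy Orm2 had log2 fold changes of -2.58 with Semaglutide, -2.17 with calorie restriction and -0.81 with Dicretin (adjusted p among groups = 1.99e-04). Reads may be split between the copies. Of 25 acute-phase genes, 7 fell (9.67% of all tested genes) and 1 rose (6.81%), with a median of 0.029.

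Of 17 tested genes of antigen presentation, 11 fell (9.67% of all tested genes) and the other 6 did not pass. On the lower side 3 were separated (2.05%), and the median was -0.71. Tap1, a subunit of the peptide transporter that loads MHC class I, held 27.95, 34.7, 37.7 and 39.1 CPM in saline and 7.67, 16.9 and 21.4 CPM in treated livers. The average log2 fold change was -1.15 ± 0.13 (SE, adjusted p = 1.08e-05). Its partner Tap2 was separated with a smaller change of -0.57, whose call was lost without the Dicretin group, and Psmb9, an immunoproteasome subunit, fell with overlap (-1.40). Tap1 and Psmb9 overlap each other on opposite strands, and Tap2 overlaps another gene. Cd74, the invariant chain of MHC class II, was 74.4, 82.8, 91.6 and 129 CPM in saline and 31.1, 47.1 and 71.6 CPM in treated livers, and its log2 fold changes were -1.12, -0.93 and -1.02. The count of lower members was 5 without saline 35 and 7 without saline 73. The summed level of 13 Kupffer cell markers was 181.4 to 889.5 CPM in treated and 411.9 to 621.3 CPM in saline libraries.

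Themis, known as a T cell receptor signalling protein, was lower in every treated library. Saline libraries held 22.99, 30.6, 39.5 and 42.6 CPM and treated libraries 0.0536, 0.384 and 3.21 CPM at the lowest, median and highest. Calorie restriction had 1.63 ± 1.41 CPM, Semaglutide 0.518 ± 0.205 and Dicretin 0.123 ± 0.0760 (mean ± SD, n = 4; adjusted p among groups = 0.00169). Its log2 fold change was -6.17 ± 0.35 (SE, adjusted p = 8.04e-09). Of the 14 T and natural killer cell markers 7 were tested, and Themis was the 1 that passed, where 9.67% of all tested genes fell. Themis aside, the 13 markers summed to 5.70 to 10.6 CPM in saline and 3.36 to 10.5 CPM in treated libraries, so these ranges overlapped. Trac, the constant segment of the T cell receptor α chain, was low throughout, with 0.885, 1.05, 1.08 and 1.12 CPM in saline and 0.127, 0.310 and 0.735 CPM in treated livers.

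Ubd, a ubiquitin-like protein induced by interferon γ and TNF, held 1.90, 4.90, 5.47 and 9.22 CPM in saline and 0.161, 0.408 and 1.65 CPM in treated livers, a log2 fold change of -3.43 ± 0.37 (SE, adjusted p = 5.38e-06). H2-Q1, a class Ib gene, and the NKG2D ligand genes Raet1d and Raet1e were separated with log2 fold changes of -2.61, -2.14 and -1.50. NKG2D ligands mark stressed cells for natural killer cells. Raet1d and Raet1e overlap on the same strand and have close copies, and Raet1e also overlaps a counted gene on the opposite strand, so their levels are uncertain. Of 13 tested genes of this kind 5 fell (9.67% of all tested genes), and 3 fell without saline 35 or saline 50. This list too was written after its values were seen. Lgals1, a galectin, had 78.1, 104, 114 and 126 CPM in saline and 11.3, 20.5 and 33.7 CPM in treated livers. Its log2 fold changes were -2.21, -2.30 and -2.22 for Semaglutide, Dicretin and calorie restriction (adjusted p among groups = 0.951).

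A4gnt, an N-acetylglucosaminyltransferase of mucin glycans, was present in saline and all but absent in treated livers. Saline libraries held 0.662, 1.56, 2.64 and 3.55 CPM, or 139 counts in all. The 4 Dicretin libraries had 0 counts, at least 45.6-fold lower with the limit set at 3 counts for the group as a whole. Semaglutide had 1 count in all (ratio 133, 95% counting interval 23.5 to 5301) and calorie restriction 2 (ratio 72.3, interval 19.6 to 603). These limits cover counting error only. Gal3st1, which sulfates galactolipids, was 7.82 ± 2.31 CPM in saline (mean ± SD) and 0.0866, 0.685 and 3.18 CPM at the lowest, median and highest of the treated libraries.

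Several further members had no list. Kbtbd11, a BTB-Kelch protein, was 11.4-fold lower, from 3.23, 4.05, 4.49 and 7.97 to 0.190, 0.454 and 0.759 CPM, with a counted gene on the opposite strand, and the long non-coding RNA Snhg11 was 9.88-fold lower. Pdlim2, a PDZ and LIM domain protein, and Ttc39a, a tetratricopeptide repeat protein, changed by -2.81 ± 0.31 and -2.97 ± 0.32 (log2, SE). Pdlim2 was 3.64, 4.69, 6.46 and 8.03 CPM in saline and 0.207, 0.750 and 1.35 CPM in treated livers. Gpc1, a heparan sulfate proteoglycan, was 59.4, 62.5, 66.3 and 72.00 CPM in saline and 12.5, 17.8 and 31.8 CPM in treated livers. Cyp2c39 fell to 0.271, 1.07 and 2.61 CPM from 3.97, 5.58, 5.64 and 6.35 CPM, and it belongs to a family of close copies.

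Cytoskeletal genes moved both ways. Of 23 tested, 6 rose (6.81% of all tested genes) and 7 fell (9.67%), with 2 (1.14%) and 4 (2.05%) separated. Tuba4a and Tubb5 were higher, Tubb5 by 0.61 on the log2 scale. Krt23, Anxa2, Krt8 and S100a11 were lower. Krt8, the main keratin of hepatocytes, was 259, 292, 305 and 329 CPM in saline and 74.9, 180.3 and 219 CPM in treated livers, and Krt23 was 15.5, 18.8, 22.3 and 27.1 and 0.917, 3.86 and 13.2 CPM. Krt23 was lowest with calorie restriction (1.34 ± 0.586 CPM) and least changed with Semaglutide (9.76 ± 2.30 CPM).

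Cilium and basal body genes were found among the lower members after the values were seen. Of 48 tested, 13 fell (9.67% of all tested genes) and 2 rose (6.81%). On the lower side 11 were separated (2.05%), and the median was -0.30. Most were low in level. Cfap54, a protein of motile cilia, had 0.955, 1.02, 1.51 and 1.82 CPM in saline and 0, 0.123 and 0.601 CPM in treated livers. Ift88, an intraflagellar transport protein, was separated without passing the test (4.55, 4.71, 4.76 and 5.11 and 1.71, 3.61 and 4.08 CPM, adjusted p = 0.0714).

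Of 23 tested targets of NRF2, the regulator of antioxidant genes, 3 were higher (6.81% of all tested genes) and 8 lower (9.67%). Gstm2, a glutathione transferase, fell from 77.7, 99.3, 102 and 119.5 to 24.1, 33.6 and 65.5 CPM and Nqo1, a quinone reductase, from 9.05, 10.8, 12.3 and 15.1 to 3.48, 5.99 and 8.40 CPM. Cbr1, a carbonyl reductase, was higher in every treated library but mostly with Dicretin, at 323 ± 95.6 CPM against 134 ± 42.05, 117 ± 8.84 and 82.1 ± 5.49 CPM in Semaglutide, calorie restriction and saline (mean ± SD). Gstp1 rose with overlap (adjusted p = 2.12e-04), from 368 ± 59.3 CPM in saline to 2677 ± 1052 CPM with Dicretin. Of 19 stellate cell and matrix genes 7 fell (9.67% of all tested genes) and none was separated (2.05% lower). Col3a1, a fibrillar collagen, was 16.5, 29.9, 48.7 and 53.7 CPM in saline and 5.15, 18.6 and 23.1 CPM in treated livers, and its call was lost without saline 50. That list had 2 lower calls without saline 35 and 1 without saline 50.

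Members from lists with few separated genes were spread over metabolism. Sdsl, a serine dehydratase-like enzyme, was higher, with 6.63, 7.36, 7.69 and 7.86 CPM in saline and 7.96, 13.1 and 50.1 CPM in treated livers, mostly through Dicretin (34.7 ± 13.7 CPM, mean ± SD). Its call was lost without the Dicretin group. Pcx, pyruvate carboxylase, which feeds gluconeogenesis, was lower, with 510.1, 536, 637 and 660.3 CPM in saline and 375, 425 and 499.7 CPM in treated livers, and it overlaps a counted gene on the opposite strand. Its call was lost without saline 35 or saline 50. Vnn1, a pantetheinase, held 141, 155, 174 and 177 CPM in saline and 34.8, 88.8 and 130.4 CPM in treated livers, and Ces2c, a carboxylesterase, changed by -2.25 ± 0.34 (log2, SE). Cxcl14, a chemokine, and Mcm6, a subunit of the replicative helicase, changed by -1.35 and -0.94, and Mcm6 lost its call without saline 35 or saline 50. Foxa3, a liver transcription factor, was higher in all groups, with 23.3, 29.9, 30.01 and 30.8 CPM in saline and 37.7, 55.5 and 121 CPM in treated livers. Foxa3 was picked after its values were seen. Alas1, the rate-limiting enzyme of heme synthesis, likewise picked afterwards, was 911, 950.0, 954 and 1282 CPM in saline and 210.4, 499 and 892 CPM in treated livers, with a log2 fold change of -1.07 ± 0.29 (SE). The Alas1 call was lost without saline 73 and without the Dicretin group.

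**Figure D3:**
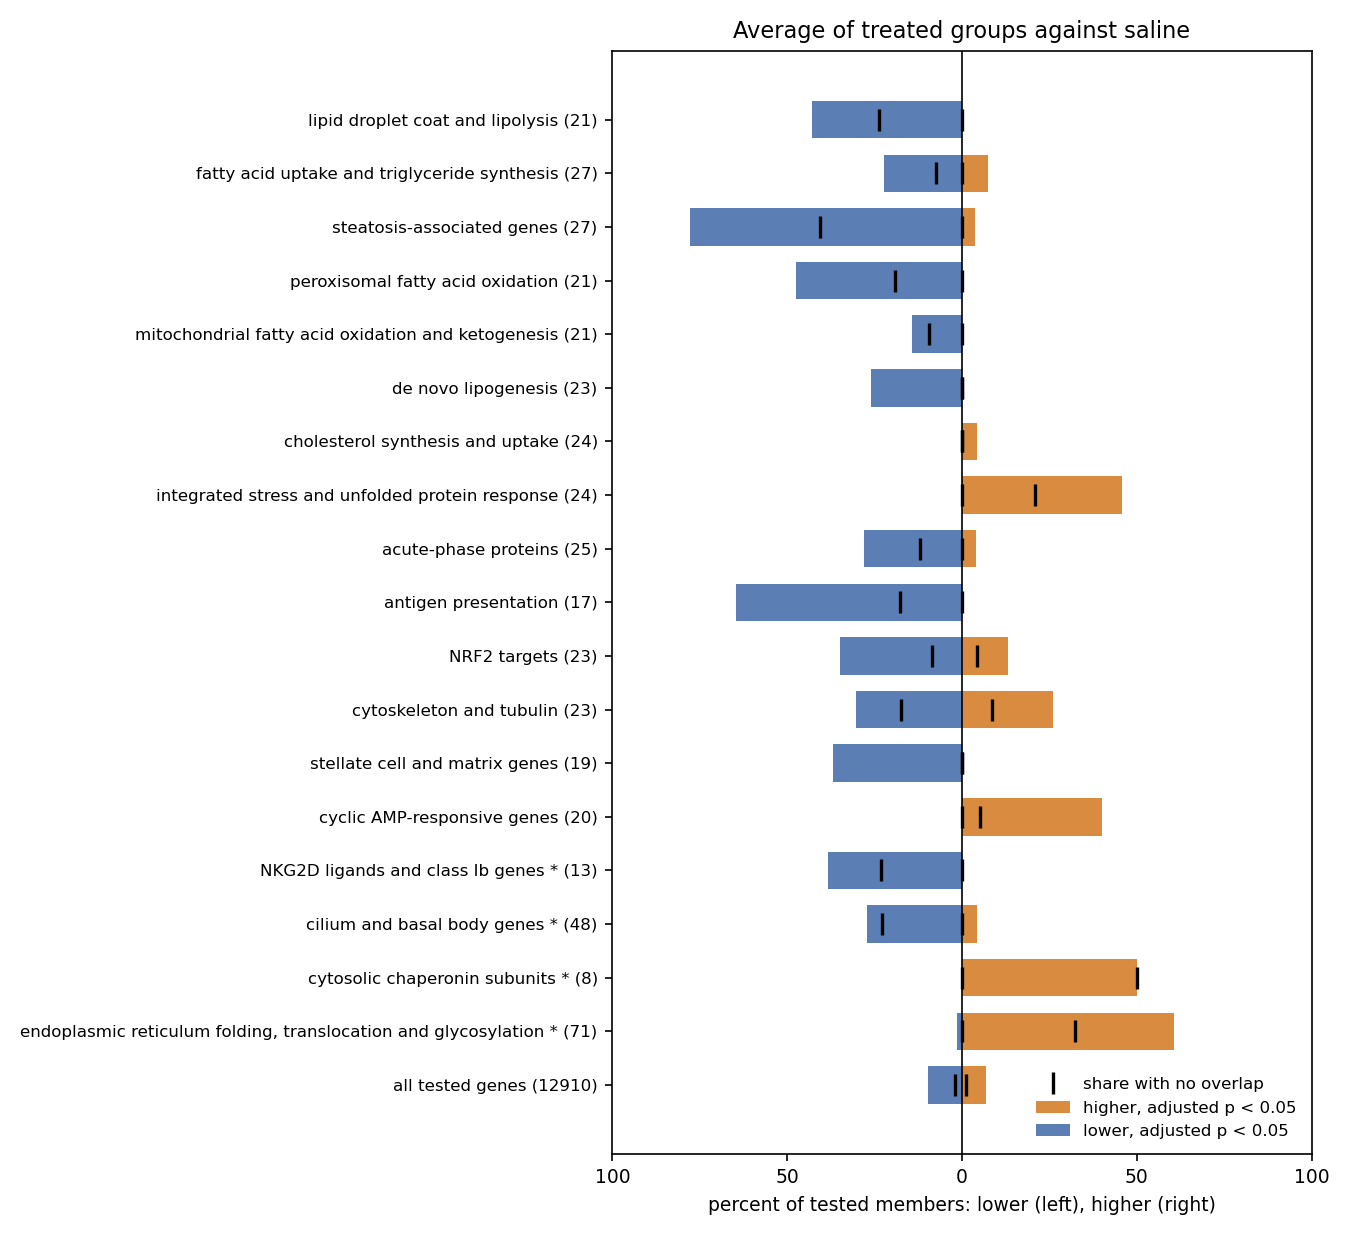
Bars give the percentage of tested members of each gene list that rose (right) or fell (left) in the average of treated groups. Ticks give the percentage separated, and numbers in brackets the members tested. An asterisk marks lists written after these values were seen. The other lists were chosen with earlier results of these data known. The folding list reaches furthest to the right and the steatosis list furthest to the left, while all tested genes show 6.81% and 9.67%.

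Members differed in how alike the 3 treated groups were. A test that compares the means of treated groups only called 4957 genes, 38.4% of those tested. Saline means do not enter its contrast, but saline libraries share in the scaling, the filter and the estimate of spread. The test called 4691 genes without saline 35 and 4679 without saline 50. With all libraries it called 53 of the 147 higher members (36.1%) and 138 of the 265 lower members (52.1%). Dicretin was the group farthest from saline for 101 of the higher and 200 of the lower members. The median log2 fold change of the lower members was -0.82 with Semaglutide, -0.91 with calorie restriction and -1.42 with Dicretin, and that of the higher members 0.46, 0.51 and 0.74. The rule chose members on these values, so the medians are a description.

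Btg3, an antiproliferative gene, had the largest range between groups among higher members. Saline libraries held 1.57, 1.77, 2.08 and 2.65 CPM, Semaglutide 3.31, 4.82, 4.99 and 6.37, calorie restriction 2.72, 2.75, 3.27 and 3.97 and Dicretin 83.7, 97.9, 113 and 165 CPM. The Dicretin libraries stood far above all others, and the gap to saline in the other groups was small. The log2 fold changes were 5.84 with Dicretin, 1.28 with Semaglutide and 0.67 with calorie restriction (adjusted p = 1.16e-10, 0.00656 and 0.123; among the 3 groups, 3.37e-11). Cxadr overlaps Btg3 on the opposite strand.

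Crem, a cyclic AMP-induced modulator of CREB, was also highest with Dicretin. Saline had 12.8, 12.98, 13.4 and 13.8 CPM, Semaglutide 14.1, 16.1, 18.2 and 28.1, calorie restriction 23.9, 24.8, 30.5 and 34.9 and Dicretin 123, 143, 179 and 179 CPM. Its Semaglutide change did not pass (log2 0.53, adjusted p = 0.142) although all 4 libraries lay above saline, and the groups differed (adjusted p among groups = 1.73e-09). Atp1b1, the β1 subunit of the sodium pump, was 452 ± 69.7 CPM with Dicretin and 64.8 ± 5.41, 58.9 ± 6.37 and 40.3 ± 6.90 CPM with Semaglutide, calorie restriction and saline. Sstr2, a somatostatin receptor, was 6.55 ± 2.33, 1.25 ± 0.404, 1.13 ± 0.137 and 0.532 ± 0.242 CPM in the same order, and its call was lost without the Dicretin group. Atp1b1, Crem and Sstr2 each overlap a counted gene on the opposite strand. Of 20 cyclic AMP-responsive genes 8 rose in the average (6.81% of all tested genes) and only Crem was separated (1.14%). In the single contrasts 16 of the 20 rose with Dicretin (17.5% of all tested genes) and 5 with calorie restriction (3.42%). Dicretin also had 1 lower call. With Semaglutide 1 of the 20 was called, on the lower side (2.62% of all tested genes), and the list's median log2 fold change was -0.16. Without the Dicretin group the list had 1 higher call in the average. Ppargc1a, the coactivator of gluconeogenic genes, was 64.1 ± 10.5 CPM with Dicretin and 9.02 ± 1.01 CPM in saline, and it was one of the genes that lost its call without that group.

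On the lower side the widest range was in Pnldc1, a ribonuclease, Sema5b, a semaphorin, Aatk, a kinase, and Themis. Pnldc1 held 11.8, 14.6, 15.2 and 15.9 CPM in saline, 4.51, 5.32, 7.06 and 8.10 with Semaglutide, 1.46, 2.27, 2.67 and 4.89 with calorie restriction and 0.0866, 0.161, 0.190 and 0.542 with Dicretin. Aatk held 24.8 ± 4.32 CPM in saline, 13.7 ± 4.45 with calorie restriction, 11.6 ± 1.79 with Semaglutide and 0.991 ± 0.175 with Dicretin (mean ± SD, n = 4). Sema5b was 12.7 ± 2.25 CPM in saline and 0.149 ± 0.161 CPM with Dicretin. In all 3 the Dicretin libraries lay below every other library. Abcc3, an exporter of bile acids and glucuronides, had the same form, with 293 ± 38.1, 194 ± 35.2, 179 ± 30.2 and 50.3 ± 6.72 CPM in saline, Semaglutide, calorie restriction and Dicretin.

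**Figure D4:**
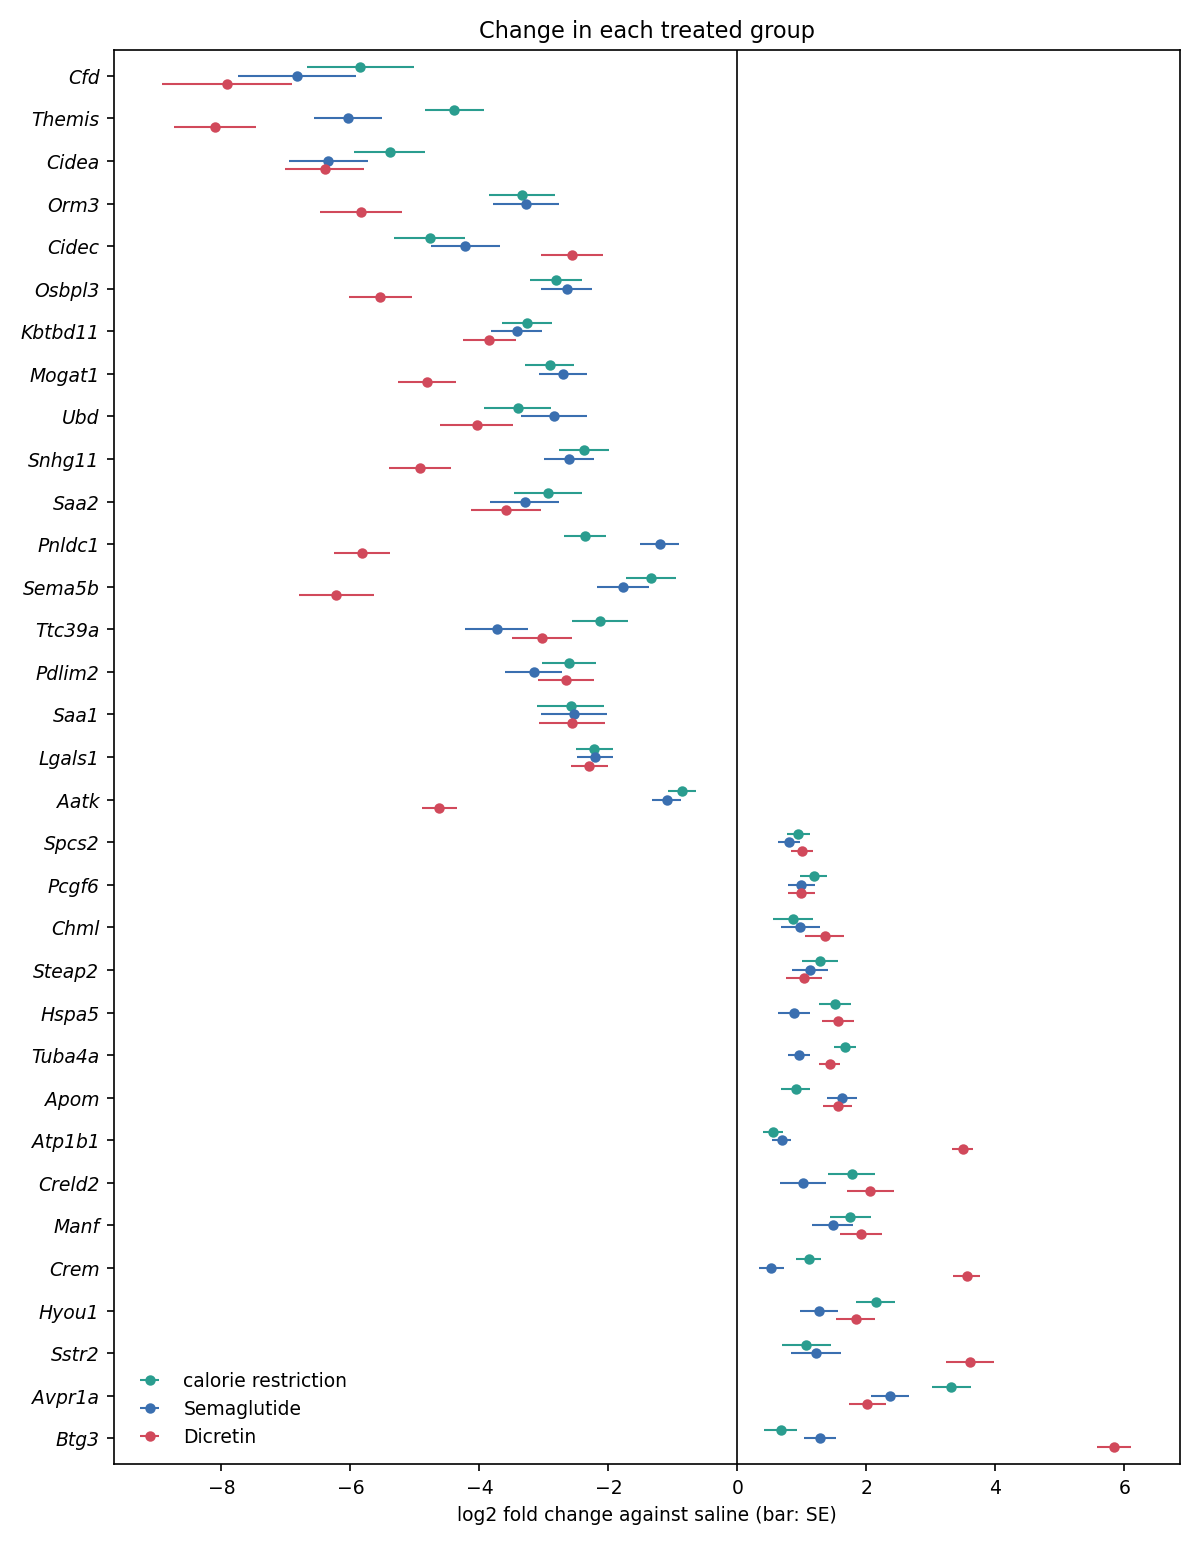
Points give the log2 fold change against saline in each treated group and bars its SE, for the named genes with more than 3 counts in every group, ordered by the average. Saa1, Lgals1 and Pcgf6 have nearly equal changes in the 3 groups, while Btg3, Crem, Atp1b1, Aatk, Pnldc1 and Sema5b are set apart by Dicretin.

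A fit of the 12 against the 4 libraries with no group terms, in which differences between treated groups enter the spread, called 265 genes, and 55 of the 133 named genes lost their call there. Among those described here they were the Dicretin-led genes Btg3, Crem, Atp1b1, Sstr2, Aatk, Pnldc1, Sema5b, Abcc3, Acsl4, Asns, Lepr, Ppargc1a, Gstp1, Cbr1, Saa4, Sdsl, Thrsp and Aacs. Of the folding and stress genes Atf4, Hsp90b1, Canx, Kdelr2, Tcp1 and Cct7 lost it too. The others were Krt23, Krt8, Pex19, Hadh, Tap2, Psmb9, Pcx, Vnn1, Ces2c, Mcm6, Alas1, Crip2, Cldn1 and Hgfac.

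The members at the limit of the rule show how thin separation can be. Crip2, a LIM protein, was the higher member with the smallest gap, at 27.4, 29.3, 31.6 and 32.97 CPM in saline and 32.98, 44.6 and 96.9 CPM in treated livers, and Hgfac, the activator of hepatocyte growth factor, was the lower one, at 217, 231, 237 and 249.6 CPM in saline and 85.8, 187 and 217 CPM in treated livers. Hgfac lost its call without saline 73 or without the Dicretin group, and Crip2 without the calorie restricted group. Just outside lay the tight junction gene Cldn1, with 23.1, 32.2, 36.5 and 36.5 CPM in saline and 36.5, 67.7 and 136 CPM in treated livers. Mtfr1l lay just outside on the lower side, with 79.96, 81.4, 84.4 and 85.4 and 52.97, 68.04 and 79.97 CPM. A single library set the limit for many members. Saline 78 was the saline library nearest to treated ones for 77 of the 147 higher and 123 of the 265 lower members, and without it 325 and 457 genes were separated. The treated library nearest to saline was most often Semaglutide 51 for the higher members (25) and calorie restricted 8 for the lower ones (41), and least often Dicretin 23 (2 and 7).

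**Figure D5:**
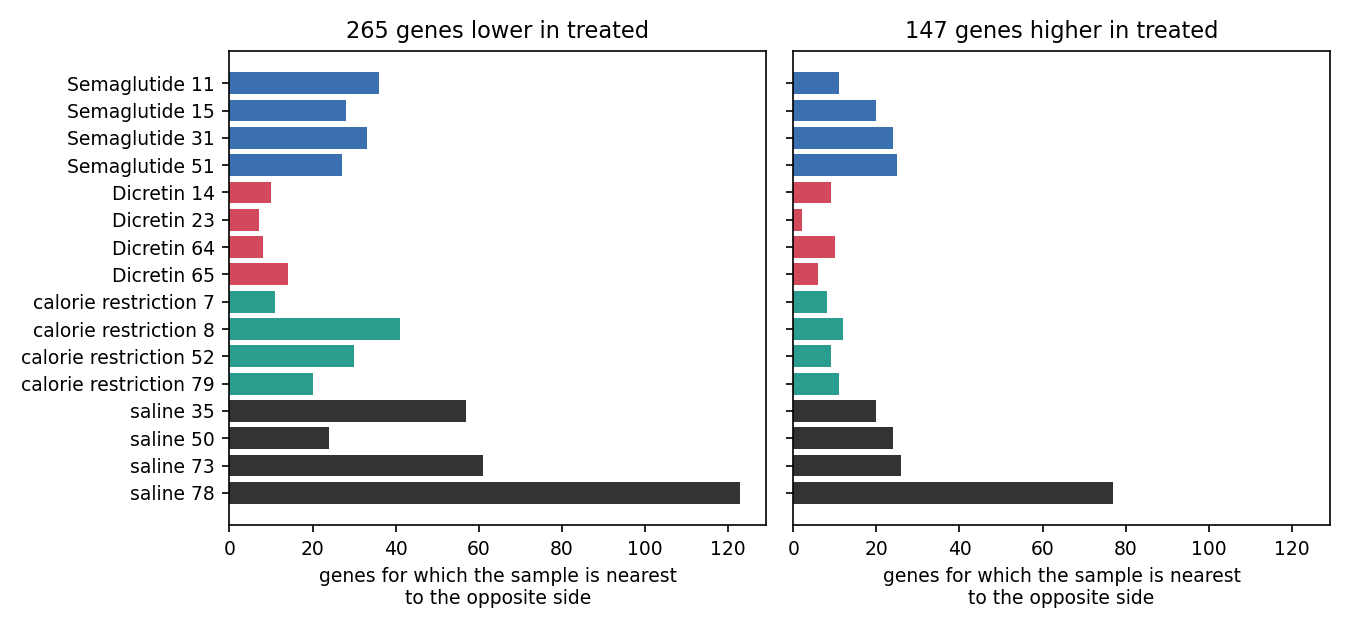
Bars count the members for which each library was the one nearest to the opposite side, for the 265 lower genes (left) and the 147 higher genes (right). Saline 78 has the longest bar on both sides, at 123 and 77, and the 4 Dicretin libraries lie between 2 and 14.

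Within 100 kb of each other on the genome, 20 pairs of members were found, 16 moving to the same side. They include Saa1 and Saa2, Tap1 and Tap2, Acad10 and Acad12, and Cfd and Med16. The receptors that the peptides act on were not members. Glp1r had 3 counts over all 16 libraries, and Gcgr was 225 ± 12.2 CPM in saline and 133 ± 26.6 CPM with Dicretin (mean ± SD, adjusted p = 8.43e-04), with an average change that did not pass (adjusted p = 0.111) and a counted gene on the opposite strand. Lepr, the leptin receptor, rose with Dicretin and Semaglutide (6.90 and 2.42 on the log2 scale) and overlapped saline in calorie restriction (0.20). The stress hormones Fgf21 and Gdf15 did not pass in the average (adjusted p = 0.649 and 0.798), with 22.6 ± 12.8 and 17.1 ± 6.71 CPM under Dicretin and 3.61 ± 2.30 and 7.02 ± 3.66 CPM in saline. Alb, albumin, was 81648 ± 7860.2 CPM in saline and its average change did not pass (adjusted p = 0.792). Of the 9 members that were separated without passing the test, Trap1 had the smallest change on the lower side (log2 -0.18, adjusted p = 0.159), and it overlaps Dnase1 on the opposite strand.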

How the data were processed

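Poly(A) RNA from 16 mouse livers was sequenced from directional libraries, per the labels' protocols. The authors deposited 1 table of raw read counts per gene, aligned with TopHat2 2.1.1 to mm10 and counted with featureCounts, per the submitters' processing notes. Annotation version, counting options and the strand setting are not given in the sources used here, so genes described in the text that overlap a counted gene on the opposite strand are marked. Of 46078 genes, 22577 had no count in any library, and 12910 passed edgeR's filterByExpr. Columns were matched to samples by title, with 0 columns of no sample.

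Counts were scaled by TMM and fitted in edgeR 4.0.16 (R 4.3.3) with glmQLFit (robust) and 1 term per group. The average of 3 treated means was set against saline, and single groups and differences among treated groups were tested in the same fit (glmQLFTest, Benjamini-Hochberg over all tested genes, threshold 0.05). A gene was separated when the lowest TMM-scaled CPM of 1 side exceeded the highest of the other. The steps were tested on simulated data. DESeq2 1.42.0, limma 3.58.1 (voom) and other settings served as alternatives.

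Named genes were the 12 higher and 16 lower separated genes with the largest change in the least changed group, at a mean of at least 2 CPM on the higher side. To these came 4 per side with the widest range between groups, taken only from genes that passed the test among treated groups. Up to 4 per list with the smallest p, the genes at the limit of the rule and a fixed panel were added. Any other gene was named after its values were seen, among them further separated members of the lists, Acad10, Acad12, Alas1, Foxa3, Gpc1, Gal3st1, Cyp2c39, Trac and Trap1. The results of some genes are not reported here. Members and lists were chosen with earlier results of these data known. Gene positions and overlaps are those of the GENCODE annotation of the same build, and promoter windows are RefSeq's for GRCm38.p6.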

Additional observations from a re-analysis of the deposited data

Results flagged for a closer look

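The 68 genes examined comprised the named genes of the rule and those of the lists. In the test that compares the means of treated groups only, 46 of them differed among the 3 treated groups, where 38.4% of all tested genes did. The 4 genes per side named for the widest range between groups had been chosen among genes that passed this test. The 46 is therefore partly fixed in advance and cannot be weighed against that share. Unless a pair of groups is named, each p below is the adjusted p of that test (edgeR's quasi-likelihood test, 4 libraries a group). The test does not show which group differs, so the group said to stand apart is a description. Where Dicretin stood apart on the lower side, the p was 2.12e-08 for Aatk, 4.19e-07 for Saa4, 8.00e-07 for Pnldc1, 1.05e-06 for Pparg, 1.39e-05 for Sema5b and 4.10e-05 for Fitm1. In the same direction it was 2.01e-04 for Hsd17b4, 3.16e-04 for Osbpl3, 5.23e-04 for Alb, 9.64e-04 for Gcgr, 9.69e-04 for Aacs and 0.00149 for Psmb9. It was also 0.00169 for Themis, 0.00187 for Thrsp, 0.00203 for Snhg11, 0.00222 for Hgfac, 0.00243 for Tap1 and 0.00349 for Tap2. Values of the same kind were 0.00476 for Mogat1, 0.00978 for Pex11a, 0.0113 for Orm3, 0.0211 for Anxa2 and 0.0330 for Hadh. Where Dicretin stood apart on the higher side, the p was 3.37e-11 for Btg3, 7.51e-11 for Atp1b1, 2.05e-10 for Ppargc1a, 2.30e-10 for Acsl4, 2.30e-10 for Lepr and 1.11e-09 for Asns. In the same direction it was 1.73e-09 for Crem, 9.26e-07 for Gstp1, 4.50e-06 for Sstr2, 1.15e-04 for Atf4, 1.99e-04 for Orm2 and 3.45e-04 for Fgf21. It was also 5.94e-04 for Gdf15 and 0.00525 for Cidec. Where calorie restriction stood apart on the higher side, the p was 2.07e-05 for Crip2, 0.00167 for Cldn1, 0.00191 for Avpr1a and 0.0447 for Ttc39a. Where calorie restriction stood apart on the lower side, the p was 6.74e-06 for Krt23 and 0.0291 for Apom. Where Semaglutide stood apart on the lower side, the p was 0.00807 for Tuba4a and 0.0344 for Gstm2. In pairwise tests of the same fit no pair of groups passed for Gstm2 (adjusted p = 0.0561, 0.0682 and 0.549). Dicretin against Semaglutide did not pass for Anxa2 and Hadh (0.0756 and 0.0597). Semaglutide against calorie restriction did not pass for Apom (0.0615). Where Semaglutide stood apart on the higher side, the p was 0.00949 for Lipe.

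Single libraries stood far from the other 3 of their group in 20 of 271 gene and group combinations (7.38%), and chance gives about 1 in 20. The cause of each was not tested. Dicretin 65 held 115 CPM of Creld2, 1652 CPM of Hspa5, 211 CPM of Manf and 1.82 CPM of Osbpl3. Semaglutide 11 held 372 CPM of Apom, 13.2 CPM of Krt23 and 7.42 CPM of Lipe. Calorie restricted 79 held 5.95 CPM of Fgf21, 7.68 CPM of Gdf15 and 8.15 CPM of Lipe. Dicretin 64 held 25.7 CPM of Asns and 0 CPM of Orm3. Semaglutide 51 held 152 CPM of Hyou1 and 23.4 CPM of Lepr. Dicretin 14 held 23.9 CPM of Vim. Semaglutide 15 held 0.967 CPM of Cfd. Semaglutide 31 held 0.0648 CPM of A4gnt. Calorie restricted 52 held 0.837 CPM of Ubd. Saline 73 held 23.3 CPM of Tap2. Saline 78 held 98.6 CPM of Aacs.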

How the results depend on the processing

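No paired analysis was possible because the numbers in the sample titles are all different and none is shared between groups. The average contrast called 2128 genes, and 3966 had an unadjusted p under 0.05. Leaving out 1 library at a time gave 1188 to 2499 calls, 402 to 1113 higher and 762 to 1414 lower. Separated genes then numbered 428 to 782, 163 to 325 of them higher and 255 to 457 lower. Single contrasts had 256 to 778 calls for Semaglutide, 3921 to 5350 for Dicretin and 502 to 1368 for calorie restriction. Fewer libraries make separation easier by construction. Without the Semaglutide group, 3358 genes were called (1560 higher) and 1223 separated (530 higher, 693 lower). Without the Dicretin group, 1129 were called (433 higher, 696 lower) and 737 separated (304 higher, 433 lower). Without the calorie restricted group 758 were separated (290 and 468). Without Semaglutide 11, Dicretin 14 and saline 78 together, 1325 were higher in the average, 1105 were separated (528 and 577) and calorie restriction had 1566 calls. With library totals alone 558 were higher. A fit of 12 against 4 libraries with no group terms called 265 genes (67 higher, 198 lower), and a test against a 1.5-fold change called 298 (55 and 243). DESeq2 called 982 genes for Semaglutide and 1528 for calorie restriction. The cause of these shifts was not tested.

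Over 133 named genes and 29 alternatives, 3707 results kept direction and call, 117 lost the call, 17 gained one and 10 turned. Of the lost calls, 55 came from the fit with no group terms and 12 from leaving out the Dicretin group. A4gnt, Alb, Asns, Galnt3 and Trac had no value under some alternatives. The turns were all in panel genes that had not passed. The log2 change of Alb was -0.0088 with library totals, -0.019 without Semaglutide, -0.12 without calorie restriction and -0.00027 without saline 35. Leaving out 1 library at a time it ran from -0.00027 to 0.11. That of Gdf15 was 0.13 without Semaglutide, 0.27 without calorie restriction, 0.12 without saline 35, 0.041 without saline 73 and 0.23 with no group terms, and that of Fgf21 was -0.71 without Dicretin. Gdf15 ran from -0.40 to 0.12 with 1 library left out.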
